A study of Arabidopsis thaliana with 6 samples.

Results

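Plant UDP-glycosyltransferases (UGTs) were examined in the aerial parts of Arabidopsis thaliana seedlings with and without a lesion in CPL2. The genes were taken from the description column of the deposited count table, where the text had to name a UDP-glucosyl transferase or a UDP-glycosyltransferase, in any letter case. From these, 7 enzymes of flavonoid, anthocyanin and glucosinolate synthesis (AT1G24100, AT2G31790, AT1G30530, AT5G17050, AT4G14090, AT5G54060 and AT1G06000) were left out. The rule found 150 of the 38192 genes in the table. Among the 150, 101 encode a protein with the plant secondary product glycosyltransferase (PSPG) box, the 44-residue stretch that holds the UDP-sugar and marks the small-molecule UGTs. A further 29 are protein-coding without a detected box, 16 are noncoding RNA loci, most of them antisense to a UGT gene, and 4 are annotated as pseudogenes, 2 of which had 0 counts in every library. The description therefore takes in more than the family its name points to, and the 29 include starch, galactolipid and N-glycan enzymes and the clock transcription factor gene BOA (AT5G59570). The 29 also hold genes with UGT numbers in which the search pattern found no box, such as UGT79B7, UGT79B8 and UGT79B11.

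UGTs move a sugar, most often glucose, from a UDP-sugar to a small acceptor molecule. In plants the acceptors include hormones (salicylate, auxin, cytokinins, abscisic acid, brassinosteroids and jasmonates), phenylpropanoids, flavonoids and foreign compounds, and the sugar usually makes the acceptor more soluble, less active or fit for storage in the vacuole. The C-terminal PSPG box binds the sugar donor, while the more variable N-terminal part binds the acceptor, and many members lie side by side in the genome.

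The wild type was accession Col, and cpl2-2 is a single allele labelled a CPL2 knockout, a gene related to the phosphatases that act on the tail of RNA polymerase II. Seedlings of both genotypes were 9 days old and had grown at 23 ± 2 °C with 16 h of light and 8 h of dark, and each genotype had 3 biological replicates, 1 library each. The design thus compares transcript levels of mutant and wild-type shoots. Levels are CPM, that is counts put on a common scale by TMM factors, folds are log2 of cpl2-2 over wild type, and a gene is called when its adjusted p from edgeR's quasi-likelihood test over all 19302 genes tested is under 0.05.

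The libraries held 18299294 to 21098728 counts. The targeted gene CPL2 (AT5G01270) stood at 19.0 ± 0.47 CPM in the wild type and 10.7 ± 0.15 CPM in cpl2-2 (mean ± SD over 3 libraries, as for all levels given with ±), a fall that went with the labels (log2 fold change -0.82, SE 0.10, adjusted p = 6.01e-09). The position of its lesion is not known here, so the remaining reads do not tell whether a whole transcript is made. Marker genes of 4 organs were read as well. Summed over 5 leaf markers, the level was 44840 to 46140 CPM in the wild type and 34750 to 35810 CPM in cpl2-2, with 4 of the 5 called lower and LHCB2.1 called higher. The 8 root markers summed to 306 to 321 CPM in the wild type and 299 to 324 CPM in cpl2-2, nearly all from PYK10, and RHD6, EXPA7, EXPA18, LRX1 and IRT1 were at 0 in every library. Only 2 of the 8 were tested. PYK10 was not called, while CASP1 was called higher, at 0.54 ± 0.17 CPM in the wild type and 1.29 ± 0.31 CPM in cpl2-2 (log2 fold change 1.25, adjusted p = 0.0217). The 4 seed markers summed to at most 0.970 CPM. The 4 flower markers summed to 0.488 to 0.926 CPM in the wild type and 2.18 to 2.67 CPM in cpl2-2. Of these, PI was tested and not called. AP1, LFY and AP3 had too few counts for the test, with 3, 2 and 1 summed over the wild type and 37, 26 and 14 over cpl2-2. In whole aerial parts, a change in the cells of a type and a change in RNA per cell cannot be told apart. The part of the lower leaf-marker and higher flower-marker levels in the results below was not tested.

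Of the 150 genes, 99 had enough counts for the test. In cpl2-2, 26 of the 99 (26.3%) were called higher, beside 14.1% of all genes tested, and 12 (12.1%) were called lower, beside 13.3% of all genes tested. The changes were mostly small. At least 2-fold rises were seen in 7 genes, where 3.07% of all genes tested rose that far, and at least 2-fold falls in 2, where the share of all genes tested was 0.508%. For 51 of the 99 genes (51.5%) the 3 libraries of the genotypes did not overlap, beside 39.0% of all genes tested. The median log2 fold change of the 99 was 0.14, with -0.002 over all genes tested. Among the 65 genes with a PSPG box that were tested, 18 were called higher and 9 lower (median 0.15). When libraries were scaled by their totals in place of TMM factors, 31 of the genes were higher and 10 lower, against 3952 and 1666 of all genes tested (2717 and 2560 with TMM), so the split over all genes depends on the scaling.

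**Figure D1:**
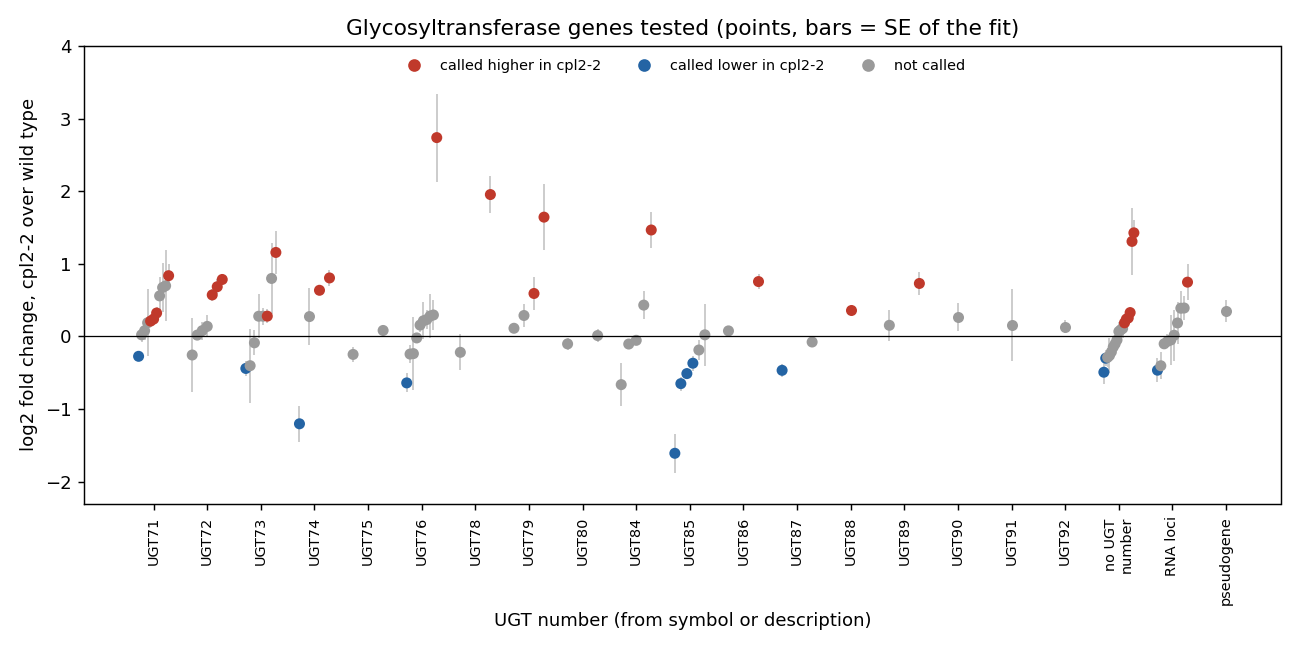
Log2 fold change of cpl2-2 over wild type for the 99 glycosyltransferase genes tested, by UGT number, with the SE of the fit as bars (3 libraries per genotype). UGT76B1 stands highest at 2.74 and UGT85A3 lowest at -1.61. The pseudogene AT1G22350, numbered UGT85, is drawn in a column of its own. With it, 7 genes are numbered UGT85, 4 called lower and 0 called higher, beside 13.3% and 14.1% of all genes tested.

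Genes for salicylate and benzoate conjugation were called in both directions. Of 6 genes, 5 were tested, and 3 were called higher and 1 lower (14.1% and 13.3% over all genes tested; median log2 fold change 0.73). The genotypes did not overlap for any of the 5, as for 39.0% of all genes tested. UGT74F1 and UGT74F2 are neighbours that both glucosylate salicylate, UGT74F1 giving mainly the glucoside and UGT74F2 mainly the glucose ester. UGT74F1 (AT2G43840, chromosome 2, 18157529 to 18159231, plus strand) stood at 3.26, 4.10 and 4.09 CPM in the wild-type libraries and at 1.81, 1.80 and 1.36 CPM in cpl2-2. Every cpl2-2 library was below every wild-type library, and the level fell 2.30-fold (log2 fold change -1.20, SE 0.25, adjusted p = 0.00015). UGT74F2 (AT2G43820, chromosome 2, 18152078 to 18153908, plus strand) stood at 9.74, 11.7 and 9.89 CPM in the wild type and at 19.9, 15.8 and 19.1 CPM in cpl2-2. Here every cpl2-2 library was above every wild-type library, a rise of 1.75-fold (log2 fold change 0.81, SE 0.11, adjusted p = 6.39e-08). Per kilobase of gene model, UGT74F2 was at 5.98 CPM and UGT74F1 at 2.43 CPM in the wild type, and at 10.5 and 1.06 CPM per kb in cpl2-2.

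The coding stretches of the PSPG box of this pair are shown because the genes moved in opposite directions although their reads could be confused where the sequences match. They are read on the plus strand from chr2:18158786-18158917 and chr2:18153335-18153466 (RefSeq TAIR10.1, whose gene positions equal those of the deposited table), and capitals mark the bases of UGT74F2 that differ from UGT74F1.
UGT74F1: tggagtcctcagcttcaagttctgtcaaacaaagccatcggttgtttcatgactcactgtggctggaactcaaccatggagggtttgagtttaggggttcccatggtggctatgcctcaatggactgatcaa
UGT74F2: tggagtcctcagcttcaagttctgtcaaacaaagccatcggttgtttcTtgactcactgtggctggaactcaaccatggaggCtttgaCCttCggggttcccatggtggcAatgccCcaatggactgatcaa
The boxes differ at 7 of 132 bases. Over the whole proteins the pair was 76.8% identical, and the longest run of bases shared by the transcripts was 48. UGT74F1 also overlaps the RNA locus AT2G09505 on the other strand, which had 5 counts in 1 wild-type library and 0 in the other 5 libraries, and each gene of the pair shares up to 62 bases with a neighbour on the other strand.

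UGT76B1 (AT3G11340, chromosome 3, 3556554 to 3558361, plus strand), which glucosylates isoleucic acid, salicylate and N-hydroxypipecolic acid, had the largest rise of the 99 genes tested. Its counts were 0, 4 and 5 in wild-type and 24, 16 and 21 in cpl2-2 libraries. All cpl2-2 libraries were higher, although the level stayed near 1 CPM (log2 fold change 2.74, SE 0.61, adjusted p = 0.000379), and the ratio of summed counts was 6.87 with an exact 95% counting interval of 3.39 to 15.7. UGT89A2 (AT5G03490), which acts on dihydroxybenzoic acids, stood at 4.50, 5.41 and 4.09 CPM in the wild type and at 7.84, 7.64 and 7.76 CPM in cpl2-2, without overlap (log2 fold change 0.73, SE 0.16, adjusted p = 0.000376). UGT71C3 (AT1G07260), which glucosylates methyl salicylate, had 43, 35 and 40 wild-type counts and 66, 58 and 47 in cpl2-2, and was not called (log2 fold change 0.56, adjusted p = 0.109). UGT76D1 (AT2G26480), another dihydroxybenzoate enzyme, had too few counts for the test, 7 in all over the wild type and 8 over cpl2-2.

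Of the 3 genes listed here for cytokinin glucosylation, 2 were called lower and 0 higher, beside 13.3% and 14.1% of all genes tested. Their median log2 fold change was -0.64. None of the 3 overlapped between the genotypes, as was so for 39.0% of all genes tested. The list is not complete, and UGT73C1 and UGT73C5, counted under other roles below, were both called higher. UGT85A1 (AT1G22400), which puts glucose on the side-chain oxygen of zeatin, stood at 22.2, 20.2 and 21.5 CPM in the wild type and at 13.3, 12.9 and 14.6 CPM in cpl2-2. All cpl2-2 values were lower, a 1.57-fold fall (log2 fold change -0.65, SE 0.10, adjusted p = 3.39e-07). UGT76C2 (AT5G05860), which glucosylates ring nitrogens of cytokinins, stood at 12.3, 10.9 and 11.9 CPM in the wild type and at 6.46, 9.06 and 6.94 CPM in cpl2-2. Its genotypes were also apart, with a 1.56-fold fall (log2 fold change -0.64, SE 0.13, adjusted p = 0.000147). UGT76C1 (AT5G05870), next to it on chromosome 5 and with the same kind of activity, went from 11.8 ± 0.84 to 10.02 ± 1.17 CPM and was not called (log2 fold change -0.24, adjusted p = 0.135).

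**Figure D2:**
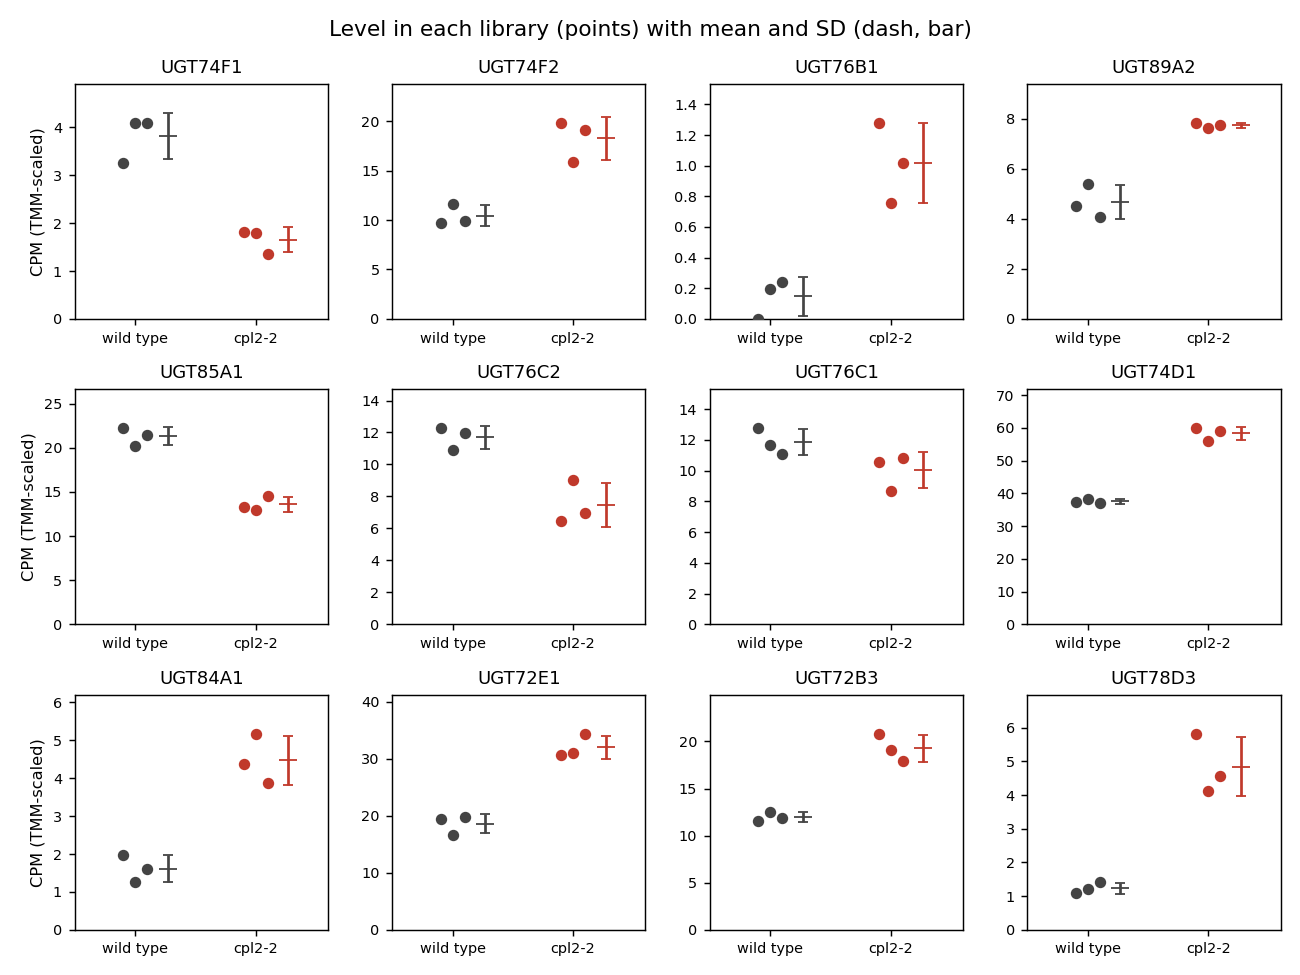
CPM in each library for 12 glycosyltransferase genes of the salicylate, cytokinin, auxin, phenylpropanoid and flavonol groups, with mean and SD beside the 3 points of each genotype. UGT74F1 is lower and its neighbour UGT74F2 higher in all cpl2-2 libraries, UGT85A1 and UGT76C2 are lower, and UGT76B1 stays near 1 CPM where it is highest.

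Other hormones had 1 rise and 0 falls each in 3 groups of 2 or 3 genes tested, beside 14.1% and 13.3% of all genes tested. With so few genes, 1 call says little about a group. Among 5 auxin genes, 3 were tested and UGT74D1 (AT2G31750), which glucosylates indole-3-acetic acid and its oxidised form, was called higher. It stood at 37.3, 38.4 and 36.9 CPM in the wild type and at 59.9, 56.1 and 59.2 CPM in cpl2-2, without overlap (1.55-fold; log2 fold change 0.64, SE 0.06, adjusted p = 9.31e-12). UGT75D1 (AT4G15550), which acts on indole-3-butyric acid, went from 18.3 ± 1.89 to 15.4 ± 1.05 CPM and was not called (log2 fold change -0.25, adjusted p = 0.0576), though it passed without wild-type replicate 2 (adjusted p = 0.0441). UGT74E2 (AT1G05680), another indole-3-butyric acid enzyme, had too few counts for the test, with 5, 2 and 2 in wild-type and 12, 9 and 15 in mutant libraries, a ratio of summed counts of 4.05 with an interval of 1.92 to 9.57. UGT84B1, which acts on indole-3-acetic acid, had 0 counts in every library, and UGT76F1, which acts on indole-3-pyruvic acid, was not called (log2 fold change -0.24, adjusted p = 0.780).

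Both brassinosteroid genes were tested. UGT73C5 (AT2G36800), which inactivates brassinosteroids by glucosylation, was called higher at 15.6, 18.0 and 15.8 CPM in the wild type against 18.0, 22.0 and 20.0 CPM in cpl2-2. The genotypes met but did not cross, and the rise was small (log2 fold change 0.28, SE 0.10, adjusted p = 0.0233). It was not called without wild-type replicate 1 (adjusted p = 0.0976), wild-type replicate 3 (0.0820) or cpl2-2 replicate 2 (0.164), and with DESeq2 (0.0527). UGT73C6, its neighbour, with 88.3% protein identity and a shared run of 110 bases, was not called (log2 fold change -0.09, adjusted p = 0.764), and reads could be split between the pair.

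Of the 4 abscisic acid genes, 3 were tested. UGT71B7 (AT3G21790), which glucosylates abscisic acid, stood at 24.8, 21.8 and 22.9 CPM in the wild type and at 29.3, 27.7 and 29.8 CPM in cpl2-2, and was called higher (log2 fold change 0.32, SE 0.08, adjusted p = 0.00118). UGT71B6 (AT3G21780) rested on 20, 24 and 24 wild-type counts and 36, 28 and 43 in cpl2-2 and was not called (log2 fold change 0.67, adjusted p = 0.142). UGT71C5, the other abscisic acid enzyme tested, was not called at 0.02 (adjusted p = 0.902). The jasmonate enzymes UGT76E1 and UGT76E2 had too few counts for the test. UGT76E1 had 7, 5 and 8 wild-type counts and 11, 14 and 8 in cpl2-2, and UGT76E2 had 0, 0 and 4 against 4, 12 and 12, a ratio of summed counts of 7.09 with an interval of 2.48 to 27.8.

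The phenylpropanoid enzymes gave 3 rises and 0 falls among 8 tested of 10 (median log2 fold change 0.56), where 14.1% of all genes tested were called higher and 13.3% lower. UGT84A1 (AT4G15480, chromosome 4, 8848801 to 8850516, minus strand), which makes glucose esters of hydroxycinnamic acids, had 40, 26 and 33 wild-type counts and 82, 109 and 80 in cpl2-2. Every cpl2-2 library was higher, a 2.76-fold rise (log2 fold change 1.47, SE 0.24, adjusted p = 3.71e-06). UGT72E1 (AT3G50740), which glucosylates coniferyl aldehyde, stood at 19.4, 16.7 and 19.7 CPM in the wild type and at 30.7, 31.1 and 34.4 CPM in cpl2-2 (1.72-fold, log2 fold change 0.79, SE 0.08, adjusted p = 8.87e-11). UGT72B3 (AT1G01420), an enzyme of monolignol glucosylation, stood at 11.5, 12.5 and 11.9 CPM in the wild type and at 20.8, 19.1 and 18.0 CPM in cpl2-2. It too was higher in all cpl2-2 libraries (1.61-fold, log2 fold change 0.69, SE 0.10, adjusted p = 3.39e-07).

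The other 5 phenylpropanoid genes tested were not called. UGT84A3, which shares the substrates of UGT84A1 and lies beside it, had a log2 fold change of -0.10 (adjusted p = 0.335). UGT84A4, the next gene, was at 4.40, 3.56 and 3.46 CPM in the wild type against 5.34, 4.55 and 5.53 CPM, without overlap (log2 fold change 0.43, adjusted p = 0.0867; 0.0412 with library totals, where it was called). UGT71C1 (AT2G29750), at 5, 8 and 18 counts against 12, 21 and 17, had a log2 fold change of 0.70 with an SE of 0.49 (adjusted p = 0.310). UGT84A2, the main sinapate enzyme, went from 93.9 ± 2.81 to 90.5 ± 9.20 CPM and was not called (log2 fold change -0.05, adjusted p = 0.497), although it fell to -0.14 without cpl2-2 replicate 3 (adjusted p = 0.0436). UGT72B1, which acts on monolignols and on chlorinated phenols and anilines, was at 101.7 ± 5.98 and 103.1 ± 3.13 CPM (log2 fold change 0.02, adjusted p = 0.808). The 2 flavonol enzymes left in the set are UGT78D3 and UGT79B6. UGT78D3 (AT5G17030, chromosome 5, 5603133 to 5604893, minus strand), which puts arabinose on flavonols, had 22, 25 and 29 wild-type counts and 109, 87 and 94 in cpl2-2. That is a 3.87-fold rise with no overlap (log2 fold change 1.95, SE 0.25, adjusted p = 1.52e-08). It shares a run of 89 bases with its neighbour UGT78D4, which was not called (log2 fold change -0.22, adjusted p = 0.566). UGT78D2, left out by the rule, lies beyond UGT78D4 at 5607788 to 5609589. It had 4406 counts summed over the wild type and 5449 over cpl2-2. The bases that UGT78D2 and UGT78D3 share were not compared. UGT79B6 had 0 counts in every library.

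Of 8 stress-responsive and detoxifying enzymes tested, 2 were called higher and 2 lower, beside 14.1% and 13.3% of all genes tested. UGT73C1 (AT2G36750), which can conjugate the explosive TNT, had 35, 19 and 21 wild-type counts and 45, 63 and 58 in cpl2-2, and rose 2.23-fold (log2 fold change 1.16, SE 0.30, adjusted p = 0.00205). UGT79B3 (AT4G27570), which modifies anthocyanins in the cold, was called higher at 2.37, 2.54 and 2.58 CPM against 3.57, 3.79 and 3.93 CPM (log2 fold change 0.59, adjusted p = 0.0415). It lost its call when any 1 of the 6 libraries was left out (adjusted p = 0.0590 to 0.109) and with DESeq2 (0.0615), and it is 94.7% identical to UGT79B2, with which it shares a run of 131 bases. UGT73B1 (AT4G34138) fell from 17.6, 17.7 and 21.1 CPM to 13.2, 14.5 and 13.8 CPM (log2 fold change -0.44, SE 0.10, adjusted p = 0.000556). UGT85A5 (AT1G22370), a gene of salt stress, fell as well and is described with its neighbours. UGT87A2 (AT2G30140), known to affect flowering time through FLC, stood at 24.2, 21.7 and 23.2 CPM in the wild type and at 16.5, 16.4 and 17.1 CPM in cpl2-2, a 1.38-fold fall without overlap (log2 fold change -0.47, SE 0.09, adjusted p = 4.12e-05). The sterol glucosyltransferase genes UGT80A2 and UGT80B1 were not called (log2 fold changes -0.10 and 0.01, adjusted p = 0.419 and 0.930).

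Genes within 10 kb of each other formed 30 runs holding 97 of the 150 genes. The UGT85A run on chromosome 1 (7890259 to 7906969, 16.7 kb) held 6 genes, of which UGT85A2, UGT85A5, UGT85A3 and UGT85A1, consecutive on the minus strand, were all called lower. That is 66.7% of the 6, all of them tested, beside 13.3% of all genes tested. UGT85A3 (AT1G22380, 7900355 to 7902427) stood at 3.36, 3.66 and 5.07 CPM in the wild type and at 0.800, 1.33 and 1.80 CPM in cpl2-2. It was below the wild type in every library and fell 3.05-fold (log2 fold change -1.61, SE 0.27, adjusted p = 5.58e-06), the largest fall of the 99 genes tested. UGT85A2 (AT1G22360) fell from 43.8, 45.4 and 51.0 CPM to 29.0, 34.2 and 35.0 CPM (log2 fold change -0.51, SE 0.07, adjusted p = 1.24e-07). UGT85A5 fell from 14.8, 17.8 and 16.8 CPM to 11.7, 13.0 and 13.5 CPM (log2 fold change -0.37, SE 0.11, adjusted p = 0.00574). At the left end of the run UGT85A7 (log2 fold change 0.02, adjusted p = 0.976) and the pseudogene AT1G22350 (0.35, adjusted p = 0.0706) were not called.

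The box sequences of the 4 genes that fell are given to show how far near neighbours can be told apart by reads. They are the 132 coding bases on the minus strand from chr1:7904103-7904234, chr1:7895308-7895439, chr1:7898356-7898487 and chr1:7900774-7900905 (TAIR10.1), with capitals where a base differs from UGT85A1.
UGT85A1: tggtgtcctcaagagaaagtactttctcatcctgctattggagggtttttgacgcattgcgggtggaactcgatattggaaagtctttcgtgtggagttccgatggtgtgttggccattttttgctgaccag
UGT85A2: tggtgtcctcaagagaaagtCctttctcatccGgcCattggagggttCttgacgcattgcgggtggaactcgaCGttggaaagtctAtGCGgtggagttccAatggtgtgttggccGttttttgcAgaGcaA
UGT85A5: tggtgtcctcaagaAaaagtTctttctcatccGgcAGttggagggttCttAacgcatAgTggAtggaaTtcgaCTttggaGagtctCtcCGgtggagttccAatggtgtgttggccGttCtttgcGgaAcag
UGT85A3: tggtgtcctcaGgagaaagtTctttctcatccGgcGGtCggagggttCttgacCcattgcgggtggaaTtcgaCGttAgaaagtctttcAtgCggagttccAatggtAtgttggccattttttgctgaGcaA
UGT85A2 differed from UGT85A1 at 15 bases, UGT85A5 at 22 and UGT85A3 at 18. Among these 4 genes the proteins were 73.9% to 80.7% identical, and the longest run shared by any 2 transcripts was 38 bases. UGT85A4, which lies elsewhere on chromosome 1, was not called (log2 fold change -0.19, adjusted p = 0.335).

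Calls went in both directions in 3 of the 30 runs. In the UGT73C run (chromosome 2, 15410376 to 15425129) UGT73C1 and UGT73C5 rose, as given above. The RNA locus AT2G36792, antisense to UGT73C6, was called lower in the same run, while UGT73C2, UGT73C4 and UGT73C3 had too few counts for the test. The second run is that of UGT74F1 and UGT74F2. In the third, the UGT71B run on chromosome 3 (7664345 to 7681797), UGT71B1 and UGT71B7 rose while HYR1, which glucosylates the synthetic growth inhibitor hypostatin, fell. HYR1 (AT3G21760) stood at 115.6, 116.8 and 123.1 CPM in the wild type and at 97.6, 96.2 and 100.2 CPM in the mutant (log2 fold change -0.27, SE 0.04, adjusted p = 2.22e-06). UGT71B1 (AT3G21750) stood at 67.0, 71.6 and 76.3 CPM against 83.9, 81.7 and 88.2 CPM (log2 fold change 0.24, SE 0.05, adjusted p = 0.000321). Both pairs of values were apart, with proteins 61.2% identical and a longest shared run of 18 bases. The RNA locus AT3G21781, the pseudogene AT3G21791 and the gene UGT71B8 of that run had too few counts for the test.

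**Figure D3:**
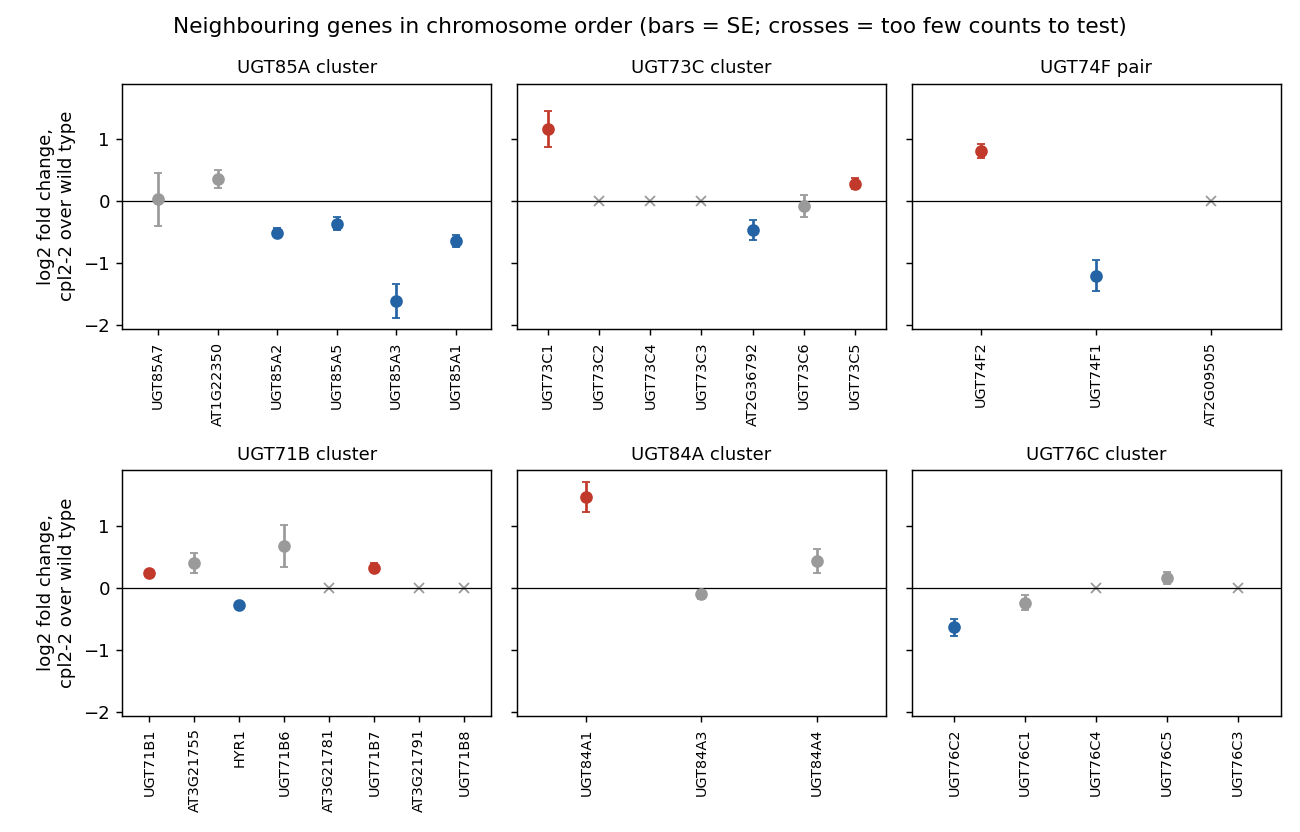
Log2 fold change with SE for genes of 6 runs in chromosome order, red for called higher, blue for called lower and grey for not called, with crosses at 0 for genes with too few counts. In the UGT85A run 4 genes in a row lie between -0.37 and -1.61, and in the UGT74F run the neighbours lie at 0.81 and -1.20.

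Because 54 of the 150 genes overlap another annotated gene, 50 of them one on the other strand, the strand of the reads matters. UGT75B1 and the RNA locus AT1G05562 have the same exons on opposite strands, and they had 703, 653 and 673 counts against 517, 562 and 558 in the wild type, and 681, 676 and 761 against 450, 533 and 524 in cpl2-2. Counting without regard to strand would have given both genes equal values, so strand was used in the counts. UGT74D1 and its antisense RNA AT2G31751 were both higher in cpl2-2. The 2 loci share 3089 bases. Summed over libraries, AT2G31751 had 123 wild-type and 203 cpl2-2 counts, and UGT74D1 had 2300 and 3523. Whether some counts of AT2G31751 were UGT74D1 reads given to the wrong strand was not tested. AT2G31751 rose from 2.27, 1.85 and 1.90 CPM to 4.27, 2.75 and 3.15 CPM (log2 fold change 0.75, SE 0.25, adjusted p = 0.0198), but was not called without wild-type replicate 2 (0.0665), wild-type replicate 3 (0.0602) or cpl2-2 replicate 1 (0.161). For HYR1 the antisense RNA AT3G21755 went from 7.66, 4.78 and 5.56 CPM to 7.63, 7.73 and 8.25 CPM, so the genotypes overlapped, and it was not called (log2 fold change 0.39, adjusted p = 0.0595); without wild-type replicate 1 it was (adjusted p = 0.00756). AT2G36792 fell from 6.18, 10.10 and 8.82 CPM to 7.47, 5.74 and 5.05 CPM with overlapping genotypes (log2 fold change -0.46, adjusted p = 0.0288), and its call was lost with DESeq2 (0.0751), with library totals (0.0622) and without wild-type replicate 2 (0.257), wild-type replicate 3 (0.0919), cpl2-2 replicate 2 (0.0782) or cpl2-2 replicate 3 (0.149). Of the 10 RNA loci tested, 1 was called higher and 1 lower, near the 14.1% and 13.3% of all genes tested.

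Among the 150 genes, the most abundant transcripts per length in the wild type were HYR1 at 69.8 ± 2.38 CPM per kb, UGT72B1 at 49.8 ± 2.93, UGT84A2 at 48.7 ± 1.46, UGT79B2 at 46.7 ± 1.93 and UGT71B1 at 36.5 ± 2.35. UGT72B1, UGT84A2 and UGT79B2 overlapped within 1 SD with their neighbours in that order, while HYR1 lay above and UGT71B1 below them. Among the enzymes left out by the rule, AT1G06000 at 108.5, AT2G31790 at 98.4 and UGT78D1 at 81.4 CPM per kb lay above HYR1. UGT79B2 (AT4G27560), which modifies anthocyanins in the cold, was not called (log2 fold change 0.11, adjusted p = 0.0786), but passed without cpl2-2 replicate 2 (0.0369) and with library totals (0.00327). The 150 genes together held 0.153%, 0.156% and 0.155% of the wild-type counts and 0.170%, 0.169% and 0.176% of those of cpl2-2. The share was higher in every cpl2-2 library, at 0.171% ± 0.0037 against 0.155% ± 0.0017, with a two-sided exact permutation p of 0.1, the smallest that 3 libraries against 3 allow. With TMM-scaled totals the difference was 0.0090 percentage points in place of 0.0167.

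Further called genes with a PSPG box have no substrate named here. UGT86A1 (AT2G36970) rose from 11.04 ± 1.03 to 18.6 ± 1.07 CPM (log2 fold change 0.76, adjusted p = 8.58e-08), AT4G15260 from 4.77 ± 0.35 to 8.51 ± 0.98 CPM (0.84, adjusted p = 3.07e-05) and UGT72B2 (AT1G01390), beside UGT72B3, from 19.4 ± 1.24 to 28.8 ± 1.02 CPM (0.57, adjusted p = 1.77e-07). UGT88A1 (AT3G16520) rose from 46.3 ± 1.11 to 59.5 ± 2.10 CPM (0.36, adjusted p = 3.00e-06). UGT71C4 (AT1G07250) rose by 0.21 (adjusted p = 0.0112) and was not called without cpl2-2 replicate 1 (0.0517).

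Of the 29 coding genes without a detected PSPG box, 23 were tested, 7 were called higher and 2 lower (14.1% and 13.3% over all genes tested; median log2 fold change 0.07). GBSS1 (AT1G32900), which makes amylose in starch granules, had the strongest rise of these by adjusted p, from 2.97, 2.49 and 3.27 CPM to 8.00, 8.73 and 6.74 CPM (2.69-fold, log2 fold change 1.43, SE 0.18, adjusted p = 1.27e-08). UGT79B8 (AT2G22930) had 11, 9 and 4 wild-type counts and 19, 25 and 31 in the mutant (log2 fold change 1.64, SE 0.46, adjusted p = 0.00484) with summed counts in a ratio of 3.17, interval 1.98 to 5.25. AT4G19460 rested on 13, 12 and 3 counts against 22, 24 and 23 (log2 fold change 1.31, adjusted p = 0.0281), and was not called without wild-type replicate 3 (0.175), without any 1 of the cpl2-2 libraries (0.0532 to 0.0659) or with DESeq2 (0.0547). BOA, a MYB-type clock factor whose deposited description names UGT76E1, the gene it overlaps on the other strand, rose from 21.2 ± 1.63 to 26.7 ± 0.27 CPM (log2 fold change 0.33, adjusted p = 0.00149). DGD1 (AT3G11670), the synthase of the chloroplast lipid digalactosyldiacylglycerol, rose from 26.7 ± 1.91 to 31.8 ± 1.98 CPM (log2 fold change 0.26, adjusted p = 0.00844), but not without wild-type replicate 1 (0.0763) or cpl2-2 replicate 2 (0.0736). LEW3 (AT2G40190), a mannosyltransferase of N-glycan synthesis, fell from 7.38 ± 0.57 to 5.23 ± 0.82 CPM (log2 fold change -0.49, adjusted p = 0.0172), but lost its call without wild-type replicate 2 (0.0858) or cpl2-2 replicate 1 (0.103). The other calls of this class were of unnamed glycosyltransferase genes. AT1G52420 rose by 0.24 (adjusted p = 0.0027) and AT3G15940 by 0.19 (0.0327), the latter lost in most alternatives (adjusted p = 0.0538 without a filter and 0.0596 with DESeq2, and without wild-type replicate 1, 2 or 3 or cpl2-2 replicate 1 or 3 0.0585 to 0.125). AT1G19710 fell from 19.08, 14.29 and 16.18 CPM to 12.59, 14.37 and 13.25 CPM with overlapping genotypes (log2 fold change -0.30, adjusted p = 0.031). It lost its call with library totals (0.1002), with DESeq2 (0.0697) and without wild-type replicate 1 (0.281), wild-type replicate 3 (0.0521), cpl2-2 replicate 1 (0.117) or cpl2-2 replicate 3 (0.0672). The trehalose-phosphate synthase gene TPS6 (-0.10, adjusted p = 0.559) and SETH2, a gene of GPI-anchor synthesis (0.11, adjusted p = 0.579), were not called.

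The remaining 51 of the 150 genes were too low for the test, and 16 of them had 0 counts in every library. None of the 51 had a mean above 0.598 CPM in either genotype, which was that of UGT74E2 in cpl2-2. The 36 with a PSPG box include UGT84B1, UGT76D1, UGT76E1 and UGT76E2.

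The 7 flavonoid and glucosinolate enzymes left out by the rule had 2 called higher and 2 lower (14.1% and 13.3% over all genes tested; median log2 fold change 0.00). The anthocyanin glycosyltransferase genes AT4G14090 and UF3GT (AT5G54060) fell (log2 fold changes -0.66 and -0.81, adjusted p = 5.36e-12 and 8.83e-13). The 2 rises were those of AT2G31790 (0.12, adjusted p = 0.00982) and UGT78D2 (AT5G17050), a flavonoid glucosyltransferase (0.33, adjusted p = 9.15e-07). UGT78D3, which shares the UGT78D name with UGT78D2 and is counted among the 150, rose further at 1.95. The difference between the folds of UGT78D3 and UGT78D2 was not tested.

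The genes that supply UDP-sugars were read beside the enzymes that use them. Of 24 such genes, all tested, 11 were called higher and 1 lower, 45.8% and 4.2% (median log2 fold change 0.28), beside the 14.1% and 13.3% of all genes. Sucrose synthase gene SUS1 (AT5G20830), whose product splits sucrose into fructose and UDP-glucose, rose from 33.2 ± 4.02 to 73.6 ± 2.84 CPM (log2 fold change 1.15, adjusted p = 2.20e-19). Both UDP-glucose pyrophosphorylase genes rose, UGP1 (AT3G03250) from 114.5 ± 4.57 to 165.5 ± 6.23 CPM (0.53, adjusted p = 7.73e-15) and UGP2 (AT5G17310) from 67.0 ± 2.62 to 100.9 ± 6.66 CPM (0.59, adjusted p = 3.26e-13). All 3 UDP-rhamnose synthase genes rose, by 0.44 for RHM1 (AT1G78570, adjusted p = 3.68e-17), 0.29 for MUM4 (adjusted p = 6.25e-05) and 0.22 for RHM3 (adjusted p = 0.0199). Of the 4 UDP-glucose dehydrogenase genes, UGD3 (0.50, adjusted p = 7.98e-10) and UDG4 (0.36, adjusted p = 2.86e-06) rose and UGD1 and UGD2 were not called. The 1 fall was that of SUS6 (AT1G73370), from 5.47 ± 1.34 to 3.57 ± 0.59 CPM (log2 fold change -0.62, adjusted p = 0.0162).

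**Figure D4:**
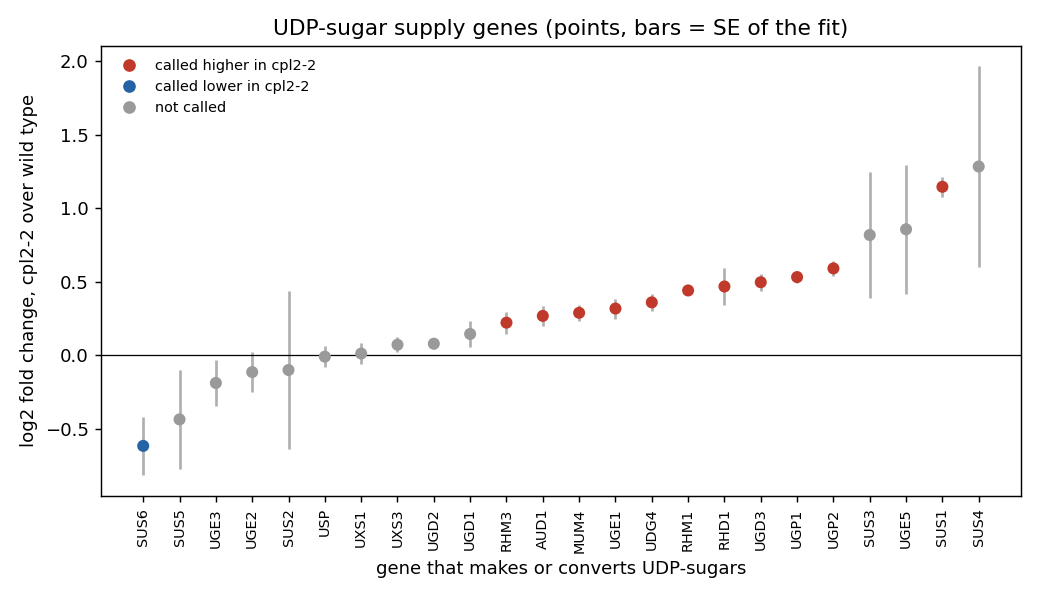
Log2 fold change of cpl2-2 over wild type with the SE of the fit for 24 genes that make or convert UDP-sugars, in order of fold, with 3 libraries per genotype. SUS1 is the largest called rise at 1.15, SUS6 the 1 called fall at -0.62, and the rest of the called genes lie between 0.22 and 0.59.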

How the data were processed

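The data were RNA-seq read counts from 6 libraries, 3 of wild-type Col and 3 of cpl2-2. The authors deposited 1 table of whole-number counts per gene without normalization, with the unit read from the values. Per the submitters' processing notes, HISAT2 2.0.5 and TAIR10 were used; neither the program that counted reads nor its annotation is given in the sources used here. Per the labels' protocols, the library kit keeps the strand.

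Counts of 19302 genes passing filterByExpr were tested with edgeR 4.0.16 (R 4.3.3; TMM factors, quasi-likelihood F test, genotype the only term, two-sided) with Benjamini-Hochberg adjustment over all of them. At this depth, 1 CPM is about 20 counts in a library, so genes near it rest on few counts, and intervals on count ratios (exact 95%, SciPy 1.17.1) cover counting error only. Levels per kb divide by the deposited gene length. Each SE is the absolute log2 fold change divided by the square root of the gene's F statistic. Boxes were found in proteins translated from RefSeq TAIR10.1 with a pattern that was widened after a first one missed known forms, and proteins were aligned with Biopython 1.88. All 150 genes had the same start and end in TAIR10.1.

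The genes, role lists and tests were chosen with earlier results of these data known. Named are every called member of a role list, the 10 largest rises and 10 largest falls among called genes of at least 1 CPM without overlap between genotypes, the 5 highest per length, and every member of a run called in both directions; others were added after their values were seen. Alternatives were library totals, DESeq2 1.42.0, limma-voom (limma 3.58.1), other filters on low counts, a replicate block and leaving out each library. The edgeR step was tested on simulated counts.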

Additional observations from a re-analysis of the deposited data

How the results depend on the processing

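Among the 150 genes, the 38 calls (26 higher, 12 lower) changed little in number with the processing. Library totals gave 41 calls, DESeq2 32, limma-voom 39, no filter 38 and a filter of at least 1 CPM in 3 libraries 37, and leaving out 1 library gave 32 to 35. Of the 38, 27 were called under every alternative run, UGT76B1 was left untested by the filter of at least 1 CPM in 3 libraries and called under the others, and 10 were lost under at least 1, all 10 of them when a library was left out: UGT71C4, AT1G19710, AT2G31751, AT2G36792, UGT73C5, LEW3, DGD1, AT3G15940, AT4G19460 and UGT79B3. Same-numbered libraries did not deviate together (Pearson's r over genes -0.012 to 0.013, and not every library correlated best with its own number), and with the replicate block 39 genes were called, including all 38. Directions were compared only for 44 genes, the called ones and the tested ones that the naming rule picked. Among these 44, the direction of 4 values that were not called turned. UGT73C6 was 0.119 without cpl2-2 replicate 1 (lowest -0.230 with 1 library left out), and UGT84A2 was 0.015 with library totals. UGT72B1 was -0.030 without wild-type replicate 1 and -0.004 without cpl2-2 replicate 3 (highest 0.046 with 1 library left out). The cause was not tested. The share of counts rose by 0.0167 percentage points, 0.0090 with TMM-scaled totals (factors 0.973 to 0.981 in the wild type and 1.02 to 1.03 in cpl2-2), and by 0.0146 to 0.0180 with 1 library left out. Library totals moved the median of all genes from -0.002 to 0.066 on the log2 scale. Depth limits the 51 genes not tested and those near 1 CPM, such as UGT76B1, whose log2 fold change ran from 2.18 to 3.29 when 1 library was left out.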
